A study of Homo sapiens with 15 samples.

Results

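Receptor tyrosine kinases were compared between cultured human lymphoid lines. Their mRNA was measured on Affymetrix U133 Plus 2.0 arrays, which carry sets of short probes for each gene. The group held 49 listed genes, 48 kinases and ALKAL2, a secreted ligand of the kinase ALK. A gene counted as measured where the platform annotation gave at least 1 probe set that gene's symbol alone, and it was represented by the probe set with the highest mean over the 15 arrays. By this rule 47 of the 49 were measured, 46 kinases and ALKAL2, among 19775 genes in all. DDR1 and EPHB2 were not analysed here. The 47 genes had 154 probe sets, and 37 of them had more than 1.

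Of the 9 lines, 6 were classical Hodgkin lymphoma lines per the labels, namely KM-H2, L428, L1236, L540 with its subline L540Cy, and HDLM2. The remaining lines were Namalwa, from Burkitt lymphoma, SU-DHL-4, from a B cell non-Hodgkin lymphoma, and Reh, from a B cell acute lymphoblastic leukaemia. The labels name no treatment, and the groups differ by the origin of their lines. L540, L540Cy and SU-DHL-4 were each hybridised once, and the other 6 lines were biological duplicates per the series' design text. L540Cy is a subline of L540, so both stand for 1 line of origin. By common knowledge L428, L1236 and KM-H2 derive from B cells, and HDLM2 and L540 from T cells. Each line is 1 established culture grown without the surrounding tissue of the tumour. Spread among the lines of a group is therefore spread between cultures of different patients' tumours, not between repeats of 1 line.

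The unit throughout is the deposited RMA log2 signal, in which a difference of 1 is a doubling. Near the background such signals understate changes. A log2 signal is not comparable between genes, so levels are ordered between lines within a gene. Array medians lay between 5.5 and 5.57, and the number of arrays limits the precision. The Hodgkin markers fixed for the check (TNFRSF8, FUT4, CCL17, GATA3 and BATF3) were above 8 in 4 or 5 of 5 genes in every Hodgkin line and in 0 of 5 in the other lines. Of 4 B cell markers, 3 or 4 were above 8 in the non-Hodgkin lines, against 1 in L1236 and 0 in the other Hodgkin lines. Of 5 T cell markers, 1 was above 8 in HDLM2 and 1 in KM-H2, and none in L540. No myeloid or endothelial marker was above 8 in any line, while 1 of 5 fibroblast markers was in SU-DHL-4 (9.92) and 1 of 5 epithelial markers in HDLM2 (10.14).

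One array stood apart. In Reh replicate 1, 22 genes that were more than 3 log2 higher in SU-DHL-4 than on the remaining arrays were all higher than in Reh replicate 2, by a median of 4.0. Among the kinases the largest gap between the Reh arrays was at KIT, at 5.0 in replicate 1 and 7.34 in replicate 2, beside 4.39 in SU-DHL-4. IGF1R (7.18 and 8.43), RYK (8.31 and 9.34), ALKAL2 (7.76 and 8.71), EPHA7 (6.20 and 7.09) and FLT3 (8.27 and 9.10) lay closer to SU-DHL-4 in replicate 1 as well. FLT4, with the next largest gap (6.03 and 6.67), did not, with SU-DHL-4 at 6.52. Results that rest on Reh are given with and without Reh replicate 1 where it matters.

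Receptor tyrosine kinases are membrane proteins that bind a ligand outside the cell, pair up, and phosphorylate tyrosines on each other inside it. Adaptor proteins read those phosphotyrosines and pass the signal to the RAS and MAP kinase, PI3 kinase and phospholipase C pathways. Normal B cells rely on the B cell receptor and cytoplasmic kinases instead, while Hodgkin and Reed-Sternberg cells have been described to carry several receptor tyrosine kinases of other tissues. Among those described are DDR2, a collagen receptor, EPHB1, a receptor of membrane-bound ephrin B ligands, MST1R, PDGFRA, CSF1R and MET.

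The promoters of the genes on which the results turn are shown first, because they give the letters in front of transcription starts that the arrays cannot separate. Of the 47 genes, 44 were found in a RefSeq promoter table (build GRCh38.p14), with 67 starts. The 250 bases before each start were searched on both strands for 4 motifs. The Sp1 motif was spelled GGGCGG. The box bound by factor NF-Y was spelled CCAAT. The AP-1 motif was spelled TGANTCA. The ETS motif, which PU.1 can bind, was spelled GAGGAA. A match is a description of letters only. The sequences below run 5′ to 3′ toward the start. In each, the capitals mark the 1 motif named beside it (CCAAT on the opposite strand reads ATTGG), and matches to the other motifs are left in lower case.
EPHB1, chr3:134795010-134795259, plus strand, with 2 CCAAT matches: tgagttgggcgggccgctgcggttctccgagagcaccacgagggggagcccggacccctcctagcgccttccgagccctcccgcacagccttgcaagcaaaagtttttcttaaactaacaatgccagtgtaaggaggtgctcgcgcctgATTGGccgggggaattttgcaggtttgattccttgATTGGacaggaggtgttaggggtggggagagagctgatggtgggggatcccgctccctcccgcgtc
MET, chr7:116671946-116672195, plus strand, with 2 Sp1 matches: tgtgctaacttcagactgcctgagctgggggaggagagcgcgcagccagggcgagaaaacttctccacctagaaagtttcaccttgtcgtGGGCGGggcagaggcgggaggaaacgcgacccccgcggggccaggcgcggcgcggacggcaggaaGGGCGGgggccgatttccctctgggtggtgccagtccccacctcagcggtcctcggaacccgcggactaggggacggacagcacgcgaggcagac
INSR, chr19:7294415-7294664, minus strand, with 4 overlapping or adjacent Sp1 matches: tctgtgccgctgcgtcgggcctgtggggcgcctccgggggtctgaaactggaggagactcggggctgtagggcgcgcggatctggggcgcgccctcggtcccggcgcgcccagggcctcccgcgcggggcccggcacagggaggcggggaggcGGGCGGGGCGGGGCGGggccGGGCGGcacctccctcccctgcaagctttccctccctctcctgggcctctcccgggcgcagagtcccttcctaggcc
CSF1R, chr5:150086555-150086804, minus strand, the downstream of its 2 listed starts, with 2 ETS matches: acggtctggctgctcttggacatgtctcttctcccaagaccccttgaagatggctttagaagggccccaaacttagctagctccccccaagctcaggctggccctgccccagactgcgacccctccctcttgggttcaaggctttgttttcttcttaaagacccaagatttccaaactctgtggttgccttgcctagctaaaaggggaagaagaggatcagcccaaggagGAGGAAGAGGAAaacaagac
DDR2, chr1:162632214-162632463, plus strand, the third of its 3 listed starts, with 2 CCAAT matches: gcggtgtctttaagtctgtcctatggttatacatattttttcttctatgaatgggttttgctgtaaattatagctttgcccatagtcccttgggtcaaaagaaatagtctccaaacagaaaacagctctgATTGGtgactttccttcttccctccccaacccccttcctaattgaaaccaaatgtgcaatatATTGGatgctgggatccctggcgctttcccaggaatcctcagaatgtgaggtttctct

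Unmarked in these windows were 1 Sp1 match in EPHB1 and 1 ETS match in MET, and none of the 5 windows held the AP-1 letters. The window of CSF1R's upstream listed start, not printed, had 1 AP-1 match, 1 Sp1 match and no ETS match. The windows of DDR2's other listed starts, not printed, matched none of the motifs. The EPHB1, MET and INSR windows were rich in G and C (60.8%, 68.4% and 78.4%), and the DDR2 window was not (42.4%). Over the 67 windows the median was 64.4%, against 58.0% over all 35116 windows of the table. Sp1 letters stood in 64.2% of the kinase windows and in 42.6% of all windows. The shares were 35.8% and 32.0% for CCAAT, 7.5% and 6.6% for AP-1, and 22.4% and 23.6% for the ETS letters. CSF1R transcription in Hodgkin cells has been described to start at a repeat element upstream of the gene. That start is not among the windows shown, and the array signal does not tell the starts apart.

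Each line was first read for the kinases above log2 8 in its mean. Of 423 pairs of a line and a gene, 47 were above 8, and 42 of them were above 8 on every array of the line. The share of the 47 genes above 8 ran from 0% in SU-DHL-4 to 17% in L540, against 32.3% to 35.7% of all genes. Only 15 of the 47 genes were above 8 in at least 1 line, where 47.7% of all genes were. None was above 8 in all 9 lines, where 23.0% of all genes were.

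**Figure D1:**
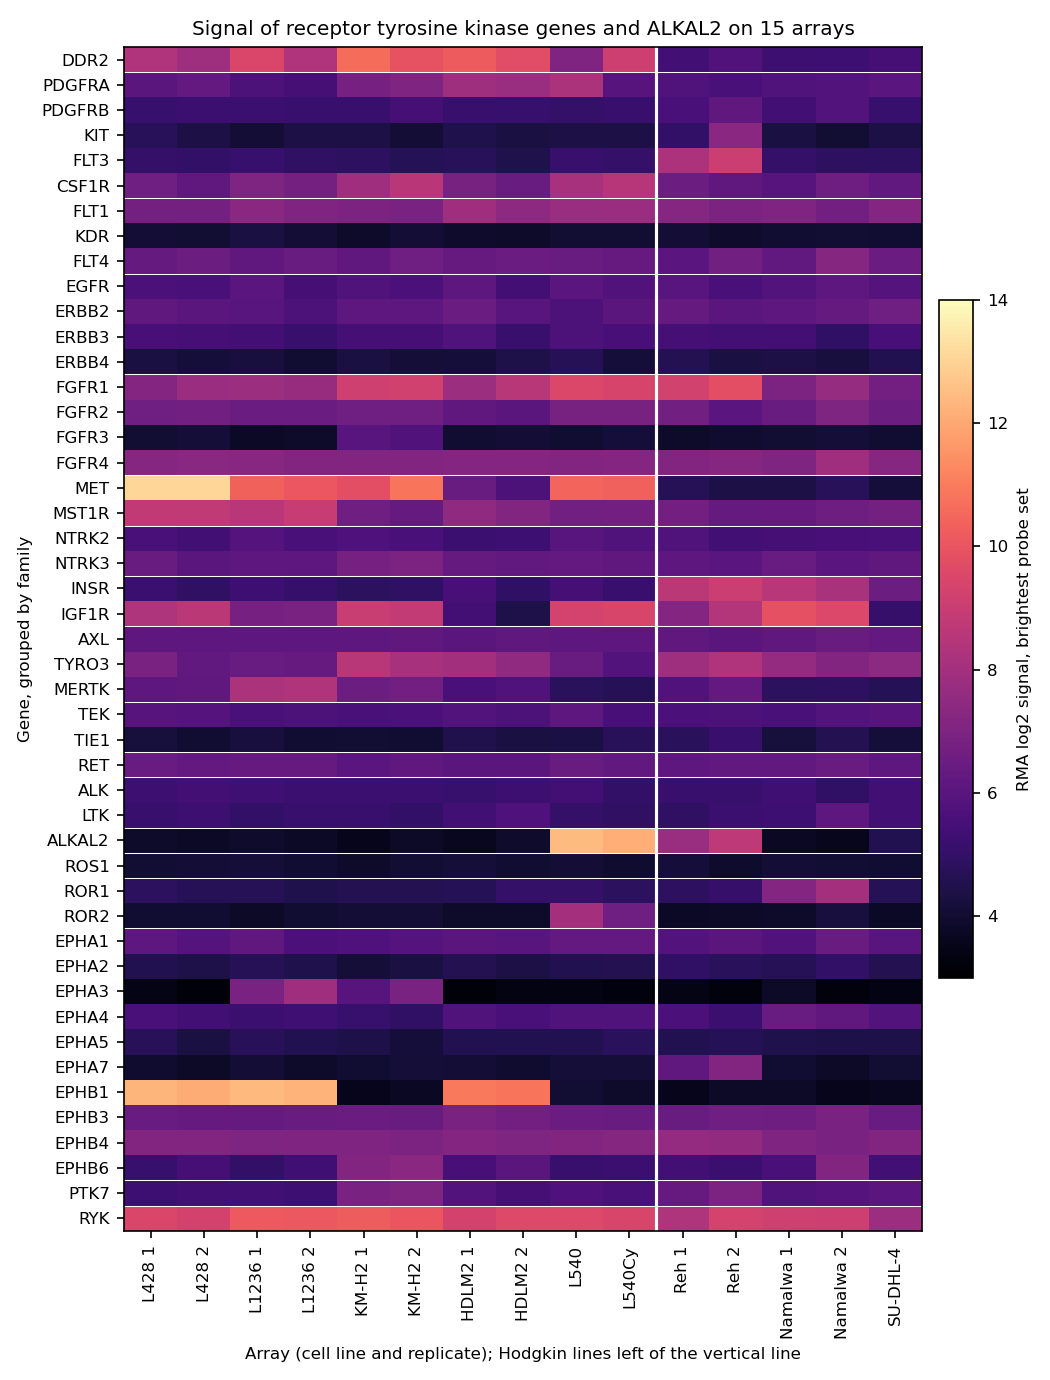
RMA log2 signal of the 47 measured genes (rows, by family) on the 15 arrays (columns, Hodgkin lines left of the vertical line); lighter is higher. MET, EPHB1, DDR2 and ALKAL2 have bright cells in a few lines, and most rows are dark in every column.

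In L428 the kinases above 8 were MET, EPHB1, RYK, MST1R, IGF1R and DDR2. L1236 had EPHB1, MET, RYK, DDR2, MST1R and MERTK, so 5 of its 6 were shared with L428. KM-H2 had MET, DDR2, RYK, FGFR1, IGF1R, TYRO3 and CSF1R. HDLM2 had only EPHB1, DDR2, RYK and FGFR1. L540 had MET, RYK, FGFR1, IGF1R, PDGFRA, CSF1R and ROR2 with the ligand ALKAL2. L540Cy had MET, IGF1R, RYK, FGFR1, DDR2 and CSF1R with ALKAL2. Reh had FGFR1, INSR, RYK, FLT3 and TYRO3 with ALKAL2. Namalwa had IGF1R, RYK and INSR, and SU-DHL-4 had none, with RYK at 7.84. Just inside the limit were ROR2 in L540 (8.04) and both TYRO3 in Reh and DDR2 in L428 (8.12). Just outside were IGF1R in Reh (7.81) and PDGFRA in HDLM2 (7.80).

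**Figure D2:**
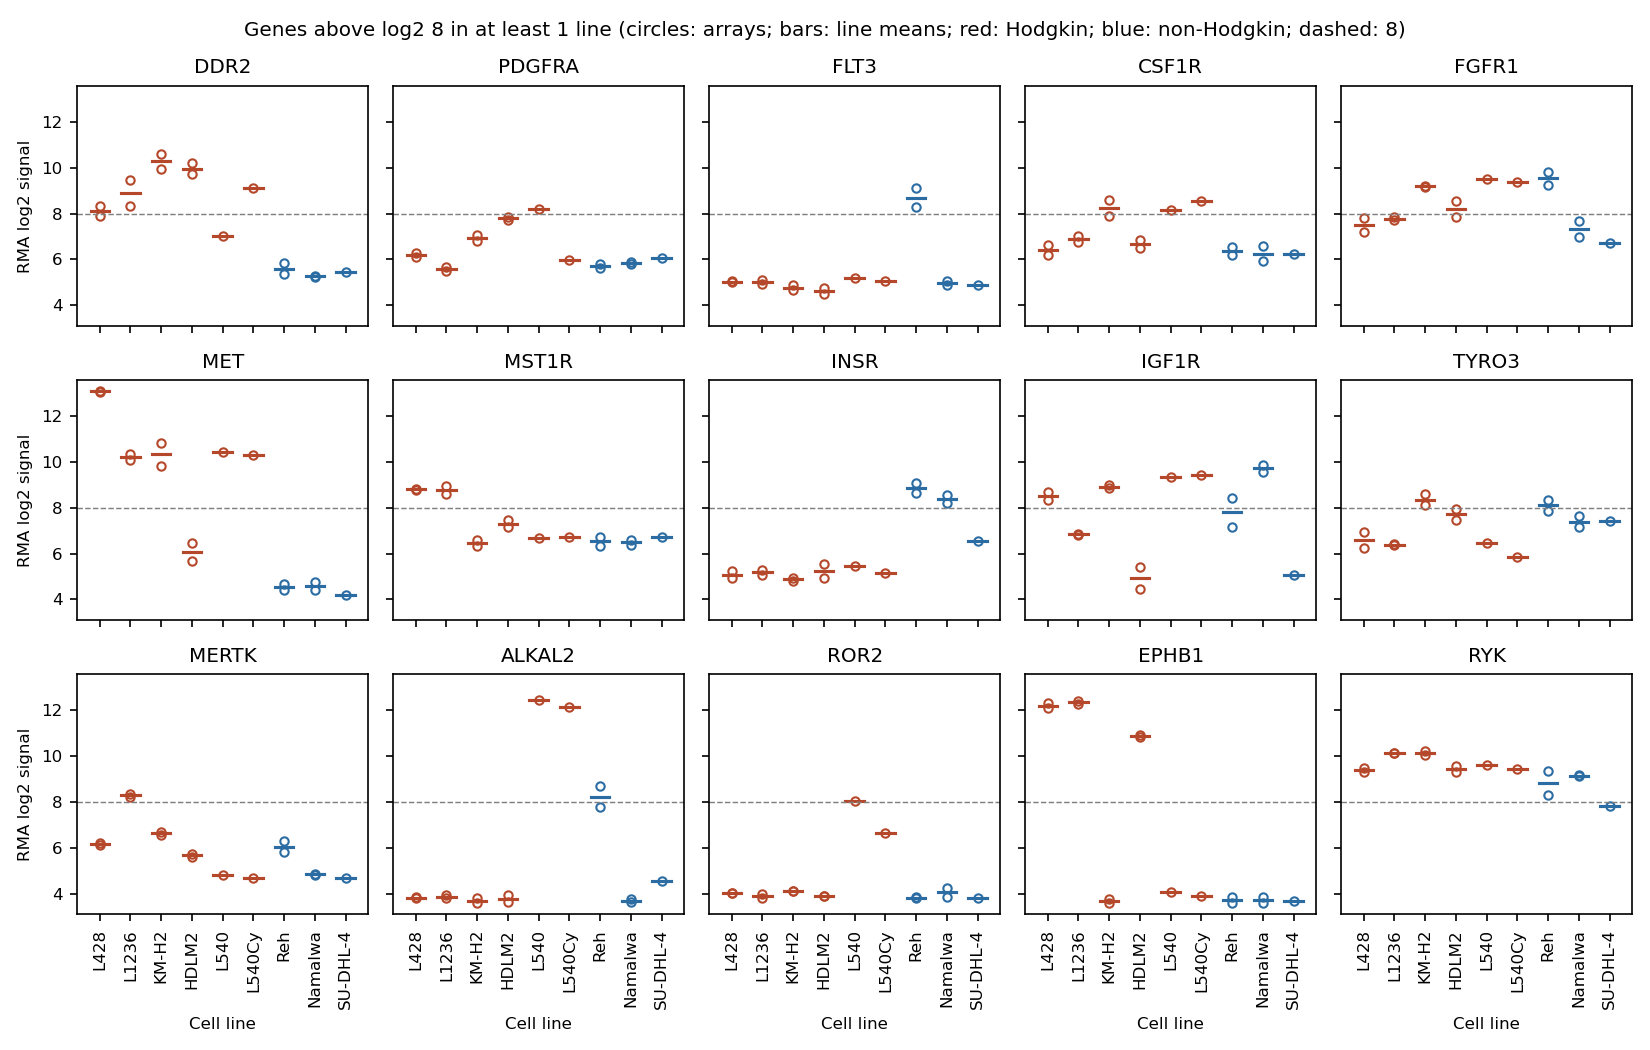
RMA log2 signal (vertical axes) of the 15 genes above 8 in at least 1 line, by cell line; circles are arrays, bars are line means, red marks Hodgkin and blue non-Hodgkin lines, and the dashed line is at 8. EPHB1 sits at 10.84 to 12.41 in L428, L1236 and HDLM2 and at 3.58 to 4.05 on every other array.

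The Hodgkin comparison asked which kinases separate the Hodgkin from the non-Hodgkin lines, with arrays averaged per line and L540 averaged with L540Cy (5 lines against 3). One kinase was higher and 1 was lower at an adjusted p below 0.05 in limma's moderated test, adjusted by Benjamini-Hochberg across all 19775 genes, and the other 45 genes were not called. Of all genes 0.759% were called higher and 0.612% lower (1.37% either way). At an unadjusted p below 0.05 the count was 5 of 47 (MET, DDR2, RYK, INSR and EPHA2) and 2810 of 19775. The median difference was 0.01 over the 47 genes and -0.02 over all genes, and 24 of the 47 were positive. In 4 kinases every Hodgkin line lay above every non-Hodgkin line (MET, DDR2, RYK and CSF1R), and in INSR every one lay below. Of all genes 5.17% had Hodgkin lines all above and 5.5% all below (10.7% together).

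DDR2 rose. Its signal was 8.35 and 7.89 in L428, 9.46 and 8.35 in L1236, 10.61 and 9.96 in KM-H2, 10.20 and 9.71 in HDLM2, 7.04 in L540 and 9.11 in L540Cy. In the non-Hodgkin lines it was 5.37 and 5.83 in Reh, 5.25 and 5.28 in Namalwa and 5.45 in SU-DHL-4. Every Hodgkin array lay above every non-Hodgkin array, with L540 the lowest and KM-H2 and HDLM2 the highest. The Hodgkin mean was 9.07 ± 1.02 (SD, n = 5 lines) and the non-Hodgkin mean 5.44 ± 0.17 (n = 3), a difference of 3.63 ± 0.56 (SE; limma adjusted p = 0.0305). The call held in 25 of 32 alternatives. It ended when L540Cy was left out (limma adjusted p = 0.0809), with the B cell derived Hodgkin lines only (0.0738), and without L1236 (0.0702), HDLM2 (0.0578), Reh (0.0813), Namalwa (0.111) or SU-DHL-4 (0.103). DDR2's other 3 probe sets gave smaller positive differences (3.11, 2.41 and 1.09). None of these was called on its own (limma adjusted p = 0.0751, 0.0565 and 0.154). L428 and L540Cy were above 8 only in the brightest DDR2 probe set.

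INSR, the insulin receptor, fell. On the non-Hodgkin arrays it was 8.64 and 9.07 in Reh, 8.56 and 8.19 in Namalwa and 6.56 in SU-DHL-4, against 4.82 to 5.53 on all 10 Hodgkin arrays. Both groups were separate on every array, and SU-DHL-4 was the lowest non-Hodgkin line. The means were 5.14 ± 0.17 (n = 5 lines) and 7.93 ± 1.21 (n = 3), a difference of -2.79 ± 0.47 (limma adjusted p = 0.0433). A second INSR probe set was also called on its own (-3.55, limma adjusted p = 0.0367), and the other 3 were lower without being called (-2.58, -2.03 and -0.83, limma adjusted p = 0.0669, 0.107 and 0.47). The call was kept in 22 of 32 alternatives. It ended with the mean of all probe sets (-2.35, limma adjusted p = 0.0644), without Reh replicate 1 (0.0559), with the B cell derived lines only (0.154), and on leaving out L428 (0.0853), L1236 (0.0917), KM-H2 (0.0779), HDLM2 (0.0896), L540 (0.0829), Reh (0.0925) or Namalwa (0.146). Of the 4 B cell markers, 2 were also called lower in the Hodgkin lines, and their part in the INSR difference was not tested.

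MET, the receptor of hepatocyte growth factor, had the largest difference of the 47 but was not called. It was 13.07 and 13.09 in L428, 10.35 and 10.07 in L1236, 9.83 and 10.83 in KM-H2, 10.45 in L540, 10.32 in L540Cy and 6.46 and 5.68 in HDLM2, against 4.20 to 4.75 on the 5 non-Hodgkin arrays. HDLM2 was far below the other Hodgkin lines but above all non-Hodgkin arrays. The difference was 5.58 ± 1.35 (10.02 ± 2.51 against 4.44 ± 0.20; limma adjusted p = 0.116). It was called in 4 of 32 alternatives: without HDLM2 (6.57, limma adjusted p = 0.0186), with the B cell derived lines only (6.77, 0.0382), with all arrays and the line as a random block (0.00365), and with the 12 numbered arrays without a replicate block (0.04).

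RYK, a Wnt co-receptor, was between 9.31 and 10.22 on the Hodgkin arrays, at 9.17 and 9.13 in Namalwa, 8.31 and 9.34 in Reh and 7.84 in SU-DHL-4. Averaged per line the groups did not overlap, but Reh replicate 2 lay within the Hodgkin range. The difference was 1.12 ± 0.34 (limma adjusted p = 0.197). CSF1R, the receptor of the macrophage growth factor CSF1, was 7.90 and 8.59 in KM-H2, 8.15 in L540, 8.53 in L540Cy and 6.18 to 7.0 on the other Hodgkin arrays, against 5.93 to 6.58 on the non-Hodgkin arrays. Arrays of L428 and HDLM2 overlapped the non-Hodgkin arrays, and the difference of 1.02 ± 0.50 was not called (limma adjusted p = 0.42).

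The remaining kinases described in Hodgkin cells were not called either. EPHB1 differed by 4.91 ± 2.37 (limma adjusted p = 0.411), with Hodgkin lines on both sides of the gap, MST1R by 1.02 ± 0.61 (0.505) and PDGFRA by 0.86 ± 0.47 (0.469). IGF1R (0.18), NTRK2 (0.04), ALK (0.01), TIE1 (-0.29) and KIT (-0.54) were not called either (limma adjusted p between 0.571 and 0.984). Under the alternatives, IGF1R ran from -1.47 to 1.28 and NTRK2 from -0.05 to 1.61, and none of these 5 was called. Of this set of 11, DDR2 alone was called.

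**Figure D3:**
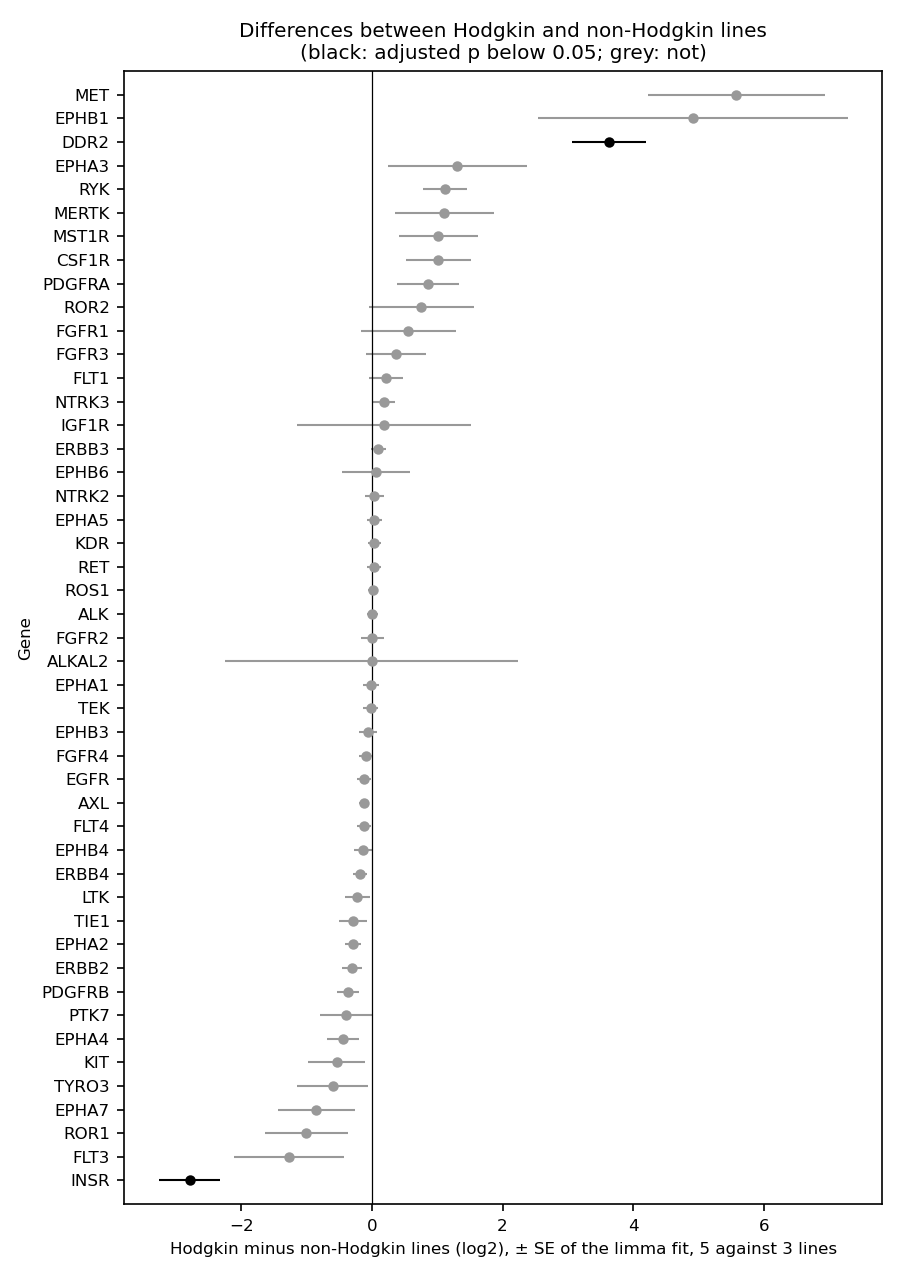
Difference between 5 Hodgkin and 3 non-Hodgkin lines of origin (horizontal axis, log2, bars ± SE of the limma fit) for the 47 genes, ordered by size; black marks adjusted p below 0.05. DDR2 (3.63) and INSR (-2.79) are black, while MET (5.58) and EPHB1 (4.91) lie further out with wider bars.

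Differences among the single lines were then tested. In an F test over the 8 lines of origin, fitted on all 15 arrays, 25 of 47 genes were called, a share near the 52.8% of all genes. Each line was then compared with the mean of the other 7 in the same fit. The 8 comparisons share arrays, and their spread comes from the 6 duplicated lines, so the lines with 1 array are assumed to vary like those. This gave 115 calls, 52 higher and 63 lower, where 8% to 16.5% of all genes were called per line and direction. The mean of the other lines includes any high line, so a lower call need not mark a loss in the named line. ALKAL2, at 3.69 in KM-H2, was called lower there by 2.06, with L540 at 12.28. EPHB1, at 3.67 in KM-H2, was called lower there by 3.54, with L1236 at 12.34. Of the 115 calls, 76 were called whichever of the 12 duplicated arrays was left out. The arrays of L540, L540Cy and SU-DHL-4 were never left out. All 14 L540 calls and all 9 SU-DHL-4 calls were kept, but they were not tested against the loss of their own arrays. All 38 calls of 2 log2 or more held in those omissions, and 22 of them were higher. They were also called with the mean of all probe sets and with the most variable one. For genes with 1 probe set, such as ALKAL2, FLT3 and ROR2, these choices used the same values. For MET, EPHB1, DDR2, EPHA3, EPHA7 and MERTK the most variable probe set gave the same differences as the brightest. With the mean, MET and EPHA3 rose less in KM-H2 (0.89 and 0.87, against 2.75 and 2.45), while ROR1 rose more in Namalwa (4.50). Shares of all genes were not counted for the kept or large calls.

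Among the ephrin receptors, EPHB1 was 12.31 and 12.09 in L428, 12.41 and 12.28 in L1236 and 10.92 and 10.84 in HDLM2. On the other 9 arrays it lay between 3.58 and 4.05, so no array was in between. Against the mean of the other lines EPHB1 was higher by 6.20 ± 0.13 in L428 (limma adjusted p = 2.18e-09), 6.37 ± 0.13 in L1236 (8.29e-10) and 4.70 ± 0.13 in HDLM2 (1.35e-08). Its other 2 probe sets were above 8 in those 3 lines and in no other. EPHB1 was thus high in 2 B cell derived lines and 1 T cell derived line, and low in 1 of each.

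Among the A class ephrin receptors, EPHA3 was 6.87 and 7.90 in L1236 and 5.94 and 6.87 in KM-H2, and 3.20 to 3.82 elsewhere. It rose by 3.57 ± 0.28 in L1236 (limma adjusted p = 1.11e-05) and 2.45 ± 0.28 in KM-H2 (0.000119). EPHA3's other probe sets varied little, with line means of 3.78 to 4.33 (highest in L1236) and 3.28 to 3.64 (highest in SU-DHL-4). EPHA7 was 6.20 and 7.09 in Reh and 3.82 to 4.16 elsewhere, a rise of 2.63 ± 0.19 (7.07e-06). EPHB6, which lacks kinase activity, rose in KM-H2 (7.12 and 7.34, by 1.73 ± 0.31, limma adjusted p = 0.00193), but Namalwa replicate 2 was as high (7.10, against 5.62 in replicate 1). EPHA3, EPHA7 and EPHB6 were below 8 in every line and are named because of their values.

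The MET family differed by line in both members. MET rose by 5.90 ± 0.26 in L428 (limma adjusted p = 1.88e-07), 2.61 ± 0.26 in L1236, 2.75 ± 0.26 in KM-H2 and 2.81 ± 0.26 in L540. L1236, KM-H2 and L540 lay within 0.2 log2 of each other, less than the gap between the KM-H2 duplicates. These values are from the brightest of 4 MET probe sets, and no other was above 8 in a line other than L428. With the mean of all MET probe sets the rises were called but smaller. They were 3.89 in L428, 0.92 in L1236, 0.89 in KM-H2 and 1.21 in L540. MST1R, the receptor of macrophage stimulating protein, was 8.81 and 8.79 in L428 and 8.59 and 8.94 in L1236, against 7.47 and 7.15 in HDLM2 and 6.33 to 6.74 on all other arrays. It rose by 1.80 ± 0.15 in L428 (limma adjusted p = 2.19e-05) and 1.76 ± 0.15 in L1236 (2.38e-05), and these 2 lines did not differ beyond their spread.

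In the PDGF receptor family, which also holds the receptors of blood cell growth factors, FLT3 was at 8.27 and 9.10 in Reh and at 4.48 to 5.19 on the other 13 arrays. FLT3, a receptor of early blood progenitors, rose in Reh by 3.78 ± 0.19 (limma adjusted p = 5.85e-07). KIT, the stem cell factor receptor, rose in Reh by 1.82 ± 0.43 (limma adjusted p = 0.0125), but only replicate 2 (7.34) was above 5.0, and the call was lost without it. CSF1R rose by 1.51 ± 0.22 in KM-H2 (limma adjusted p = 0.000651) and 1.62 ± 0.22 in L540 (0.00047). PDGFRA rose in HDLM2 (7.87 and 7.73, by 1.61 ± 0.12, limma adjusted p = 7.16e-06).

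INSR and IGF1R, which bind insulin and insulin-like growth factors, followed different orders. IGF1R was 9.87 and 9.57 in Namalwa, 9.35 in L540, 9.44 in L540Cy, 8.99 and 8.86 in KM-H2 and 8.32 and 8.67 in L428. It was 7.18 and 8.43 in Reh, 6.80 and 6.87 in L1236, 5.42 and 4.44 in HDLM2 and 5.07 in SU-DHL-4. Hodgkin and non-Hodgkin lines stood at both ends of that order. IGF1R rose in Namalwa by 2.37 ± 0.30 (limma adjusted p = 0.000296) and fell by 3.10 ± 0.30 in HDLM2 (4.11e-05) and fell by 2.94 ± 0.41 in SU-DHL-4 (0.000884). INSR rose in Reh by 3.05 ± 0.18 (1.82e-06) and in Namalwa by 2.50 ± 0.18 (8.18e-06).

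FGFR1, a receptor of fibroblast growth factors, was 9.26 and 9.82 in Reh, 9.52 in L540, 9.36 in L540Cy and 9.15 and 9.21 in KM-H2, and 6.70 to 8.56 elsewhere. It rose by 1.52 ± 0.24 in Reh (limma adjusted p = 0.00143) and 1.40 ± 0.24 in L540 (0.00192), and fell by 1.72 ± 0.33 in SU-DHL-4 (0.00537). Among the TAM receptors, which bind GAS6 and protein S on dying cells, MERTK was 8.22 and 8.35 in L1236 and 4.67 to 6.70 elsewhere, a rise of 2.75 ± 0.13 (3.77e-07). TYRO3 was 8.58 and 8.14 in KM-H2, 7.87 and 8.36 in Reh, 7.96 and 7.47 in HDLM2 and 5.85 to 7.63 elsewhere. TYRO3 rose in KM-H2 by 1.25 ± 0.22 (0.00217), a call that was lost without KM-H2 replicate 1. The third TAM receptor, AXL, stayed between 6.07 and 6.47 on all arrays.

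ALKAL2 was at 12.43 in L540 and 12.13 in L540Cy, at 7.76 and 8.71 in Reh, at 4.57 in SU-DHL-4 and at 3.57 to 3.93 on the other 10 arrays. It rose by 7.76 ± 0.20 in L540 (limma adjusted p = 9.09e-09) and by 3.13 ± 0.20 in Reh (3.16e-06). Its receptor ALK did not pass 5.44 on any array, its value in L540, and the receptor LTK did not pass 6.12, which it reached in Namalwa replicate 2. ROR2, a Wnt5a receptor, was at 8.04 in L540, 6.63 in L540Cy and 3.79 to 4.25 elsewhere, a rise of 3.39 ± 0.12 for that line of origin (4.54e-08). DDR2, higher in the Hodgkin group as a whole, was highest in KM-H2 (by 2.95 ± 0.28, limma adjusted p = 3.68e-05) and HDLM2 (2.57 ± 0.28, 8.77e-05), whose arrays overlapped. ROR1, a paralogue of ROR2, rose in Namalwa (7.20 and 8.03, against 4.47 to 5.08 elsewhere, by 2.84 ± 0.19, limma adjusted p = 5.39e-06).

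Counted by line, the calls (higher and lower, with the shares of all genes) were 4 and 8 in L428 (12% and 11.7%), 7 and 9 in L1236 (14.4% and 10.6%), 14 and 7 in KM-H2 (15.2% and 12.9%) and 4 and 7 in HDLM2 (14% and 13.0%). They were 8 and 6 in L540 (11.8% and 13.8%), 11 and 8 in Reh (11% and 10.8%), 4 and 9 in Namalwa (11.3% and 16.5%) and 0 and 9 in SU-DHL-4 (8% and 9.72%). The Reh calls of FLT3, ALKAL2, INSR, EPHA7 and FGFR1 were kept with Reh replicate 1 left out, as with each of the other 11 duplicated arrays. KM-H2 had the most higher calls of any line, and SU-DHL-4 had none. The SU-DHL-4 contrasts, from 1 array, had wider standard errors (0.35 for MET, against 0.26 in KM-H2), so its count is not directly comparable. Beside those named above, KM-H2's higher genes included FGFR3 (5.97 and 5.82, by 1.88 ± 0.10, limma adjusted p = 8.73e-07), a fibroblast growth factor receptor that stayed at 3.78 to 4.18 on all other arrays and is named because of its values. FGFR3's other probe set did not show this rise, with line means of 3.57 to 3.99 and its highest in SU-DHL-4. With the mean of both, FGFR3 rose in KM-H2 by 0.87. With 1 array left out, the count of calls fell to between 5 and 7 in L428 (12 as reported). It fell as low as 8 in L1236 (16 as reported), 13 in KM-H2 (21) and 12 in Reh (19). These counts include any genes newly called in the refit.

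L540Cy was set against L540, with 1 array each and the spread taken from the duplicated lines, so that the 2 cultures are assumed to vary like the duplicates. In this comparison 2 kinases were called, and 1.49% of all genes were. PDGFRA was 8.21 in L540 and 5.95 in L540Cy (it fell by 2.26 ± 0.22, limma adjusted p = 0.00135), and ROR2 was 8.04 and 6.63 (it fell by 1.41 ± 0.22, limma adjusted p = 0.0151). DDR2 was 7.04 and 9.11, a difference of 2.07 ± 0.52 that was not called (limma adjusted p = 0.104). MET, IGF1R, FGFR1 and ALKAL2 differed by 0.30 or less between the 2 cultures.

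The other 32 genes were above 8 in no line. In 10 of them no array reached 6, and in 19 the signal spanned less than 1 log2 over all arrays, down to 0.27 for ROS1. All 4 ERBB receptors (EGFR, ERBB2, ERBB3 and ERBB4, with growth factors of the EGF type as ligands) were among them, with 4.0 to 6.61 on all arrays in their brightest probe sets. Other EGFR probe sets reached 7.71 in Namalwa replicate 2 and 7.11 in KM-H2 replicate 1. So were the VEGF receptors FLT1 (6.70 to 7.90), KDR (3.86 to 4.30) and FLT4 (6.03 to 7.22), and RET (6.04 to 6.46). A flat signal in a single probe set does not show that a gene is silent.

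For 24 of the 47 genes at least 1 probe set spanned 2 log2 or more between line means, and in 4 of them (FGFR2, NTRK2, EGFR and EPHA4) only a probe set other than the brightest did. In 3 genes another probe set was above 8 in a line where the brightest was not, and these, like NTRK2, are named because of their values. PDGFRA's second probe set was 9.72 and 10.06 in KM-H2, 6.15 and 6.61 in HDLM2, 6.64 in L540 and 3.53 to 4.47 elsewhere. It rose in KM-H2 by 5.49 ± 0.16 (limma adjusted p = 2.55e-08 over all probe sets), where the brightest one rose by 0.61. The most variable FGFR2 probe set was 9.52 and 8.51 in KM-H2, 6.37 and 6.16 in Namalwa and 4.06 to 4.57 elsewhere. It rose in KM-H2 by 4.38 ± 0.23 (limma adjusted p = 9.97e-07), and 3 more FGFR2 probe sets rose there by 2.58 to 3.72. The brightest FGFR2 probe set lay between 6.04 and 7.02 on all arrays.

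ROR1's other 2 probe sets set Namalwa apart further than the brightest, and one of them was 9.25 and 9.53 there and 3.15 to 3.44 elsewhere (a rise of 6.14 ± 0.12, limma adjusted p = 6.68e-09). NTRK2, the receptor of the neurotrophin BDNF, showed the same kind of gap below 8. Its most variable probe set was 7.44 and 8.28 in KM-H2, 5.48 and 6.51 in L1236 and 3.58 to 5.03 elsewhere, a rise of 3.61 ± 0.27 in KM-H2 (limma adjusted p = 1.19e-05), while its brightest probe set lay between 5.22 and 5.98. An EPHA4 probe set rose in HDLM2 (6.47 and 5.90) by 2.43 ± 0.29 (limma adjusted p = 0.000242). An EGFR probe set rose in KM-H2 by 1.63 ± 0.51 (limma adjusted p = 0.0454), with 7.11 in replicate 1 but 4.37 in replicate 2. KM-H2 was the top line for every alternative probe set of PDGFRA, FGFR2 and NTRK2 that spanned 2 log2 or more. The flatter alternative probe sets of PDGFRA and FGFR2 were highest in other lines. Taken singly, 3 of 154 probe sets of these genes were called in the Hodgkin comparison (1.95%, with 1.2% of all 41091 probe sets), 1 of DDR2 and 2 of INSR.

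**Figure D4:**
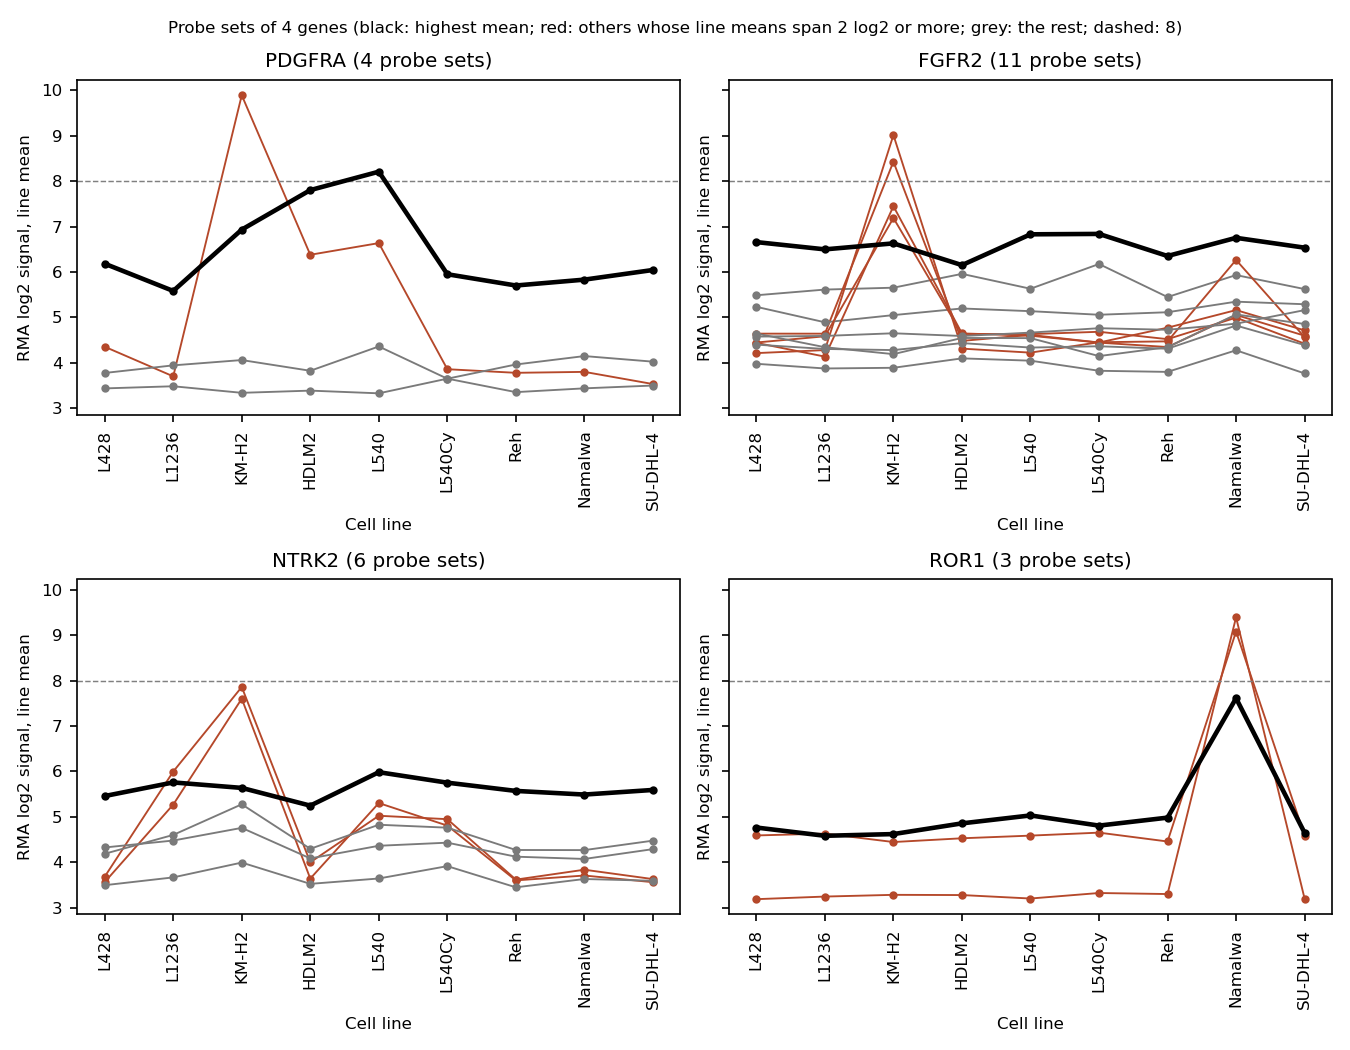
Line means of RMA log2 signal (vertical axes) for every probe set of PDGFRA, FGFR2, NTRK2 and ROR1 by cell line; black is the probe set with the highest mean, red those spanning 2 log2 or more, grey the rest, and the dashed line is at 8. Red lines peak in KM-H2 for PDGFRA, FGFR2 and NTRK2 and in Namalwa for ROR1, while the black FGFR2 and NTRK2 lines are nearly flat.

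Ligands of these receptors were read from a list of 48 measured genes, of which 0 were called by limma in either direction of the Hodgkin comparison (6 at an unadjusted p below 0.05). The largest differences were FGF2 at 2.37 ± 0.73 (limma adjusted p = 0.207) and PDGFA at 2.18 ± 0.96 (0.365). The number above 8 ran from 3 in Namalwa to 9 in KM-H2. Receptor and ligand levels were set side by side without a test, each read against its own level in other lines. CSF1 was 8.39 in KM-H2, 7.51 in L540 and 7.98 in L540Cy, the lines with CSF1R above 8, and 9.56 to 10.07 in L428, L1236 and HDLM2, where CSF1R was lower. HGF, the ligand of MET, was 7.84 in KM-H2 and 5.58 to 6.49 in the other lines, L428 included. KITLG was 9.40 and PDGFC 9.65 in L1236, and neither passed 3.79 in another line, while in L1236 KIT was at 4.10 and 4.40 and PDGFRA was at its lowest. WNT5A was 11.48 in KM-H2, 10.07 in L540Cy, 9.63 in L1236, 9.07 in SU-DHL-4, 8.63 in L540 and 8.48 in L428, and 4.12 to 5.81 in HDLM2, Reh and Namalwa. EFNB2, an ephrin B ligand, was 11.05 in Reh, 9.94 in L1236 and 8.66 in KM-H2, and 4.10 in L428 and 4.19 in HDLM2. EPHB1 was high in only 1 of the 3 lines with EFNB2 above 8, L1236.

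Of 25 adaptors and effectors, 1 was called higher and 1 lower in the Hodgkin lines, with 0.759% and 0.612% of all genes. PLCG2, a phospholipase used by the B cell receptor, was 11.21 in Reh, 10.94 in Namalwa and 11.72 in SU-DHL-4 and 5.99 to 8.16 in the 6 Hodgkin lines. It fell by 4.42 ± 0.40 (limma adjusted p = 0.00281) and was called in all 32 alternatives. NCK2, an adaptor that links phosphotyrosines to the actin skeleton, was 10.13 to 11.79 in the Hodgkin lines and 7.26 to 8.86 in the others, a rise of 2.83 ± 0.45 (limma adjusted p = 0.0338). Its call was kept in 24 of 32 alternatives. It ended with the B cell derived lines only (0.0854), without Reh replicate 1 (0.0539), and without L428 (0.0533), L1236 (0.0695), KM-H2 (0.062), HDLM2 (0.073), Namalwa (0.102) or SU-DHL-4 (0.0823). Of the 25, 20 were above 8 in at least 1 line, with 47.7% of all genes.

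Of 15 negative regulators and coreceptors 0 were called by limma (4 at an unadjusted p below 0.05). The largest differences were LRIG1, which targets ERBB receptors and MET for degradation, at -4.16 ± 1.07 (limma adjusted p = 0.136) and LRIG3 at 2.59 ± 0.97 (0.29). LRIG1 was 9.24 in Reh, 8.33 in Namalwa and 10.31 in SU-DHL-4 and 4.14 to 4.89 in 5 Hodgkin lines, with KM-H2 at 8.44. Of 9 further receptor tyrosine kinases outside the listed genes 0 were called (1 at an unadjusted p below 0.05).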

How the data were processed

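Expression was measured on 15 arrays of 9 lines (biotin labelled total RNA, RNeasy kit, per the labels' protocols). The deposited values are log2 signals made by the authors with RMA (background correction, normalization between arrays and summary of probes). This is per the submitters' processing notes, and the software version is not given in the sources used here. Array medians were 5.5 to 5.57, the upper quartile was 7.31 in Namalwa replicate 2 and 7.54 to 7.72 on the others, and no 2 arrays were identical. Arrays give no counts, so the number of arrays limits the precision.

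Of 54675 probe sets, 62 controls were left out. Of the rest, 41091 had 1 symbol (used), 1801 several and 11721 none, and 41037 of those used matched RefSeq (GRCh38.p14) by Entrez identifier. A gene took the probe set with the highest mean.

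Fits used limma 3.58.1 in R 4.3.3 and adjusted p by Benjamini-Hochberg across the 19775 genes (threshold 0.05). The Hodgkin comparison averaged arrays per line and L540 with L540Cy. The line fit used all 15 arrays, 1 mean per line, with 6 residual degrees of freedom, and a line of origin's contrast against the mean of the other 7. On simulated data with 200 of 19775 genes changed, the Hodgkin comparison recovered 73% of changes of 2 log2 and 91% of 4 log2, and the KM-H2 contrast 95% and 98%. Each also gave 11 false calls. The changed genes were drawn at random from all genes, so the recovery is not that of the kinases. Kinases with a wide spread between lines, such as MET (SE 1.35) and EPHB1 (SE 2.37), were not simulated apart. The KM-H2 data were simulated with the spread between duplicate arrays only and no differences among the other lines, unlike the real lines. Named were all genes above 8 in a line, all called in the Hodgkin comparison and a set described in Hodgkin cells. Genes added after their values were seen are marked. Alternatives changed the probe set, normalization, dim-gene filter, variance model, treatment of L540Cy, blocks, and left out arrays and lines. Members and lists were chosen with earlier results of these data known.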

Additional observations from a re-analysis of the deposited data

Results flagged for a closer look

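In 7 of the 47 genes 1 of the 5 Hodgkin lines of origin was an outlier beside the other 4, by Dixon's test at the 95% level. That is 14.9%, with 10.4% of all 19775 genes by the same test, and chance gives about 1 in 20 (2.4 of 47). ALKAL2 in L540 (12.28, next line 3.87) and ROR2 in L540 (7.33, next 4.10) had the widest gaps, both averaged with L540Cy. KM-H2 stood above the others in FGFR3 (5.90, next 4.10), PTK7 (6.96, next 5.66) and NTRK3 (6.87, next 6.28). The remaining cases were small in size: EPHB3 in HDLM2 (6.81, next 6.49) and FLT4 in L1236 on the low side (6.33, next 6.42).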

How the results depend on the processing

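No called result changed sign under the alternatives run. The 2 calls of the Hodgkin comparison became 1 with the mean of all probe sets (DDR2) and with L540Cy left out (INSR). With the B cell derived Hodgkin lines only, both were lost and 1 other gene, MET, was called. The count ran from 0 to 2 when an array or a line was left out. Of the 47 line and gene pairs above log2 8, a level of 7 gave 84, a level of 9 gave 27 and the mean of all probe sets gave 25. The calls of lines against others stayed between 95 and 150 (115 as reported), the F test between 22 and 29 (25) and L540Cy against L540 between 2 and 3 (2). Over all genes the Hodgkin comparison called 271, against 424 with L540 and L540Cy as 2 lines, 1074 with the line as a random block, 176 with the B cell derived lines only, 174 without SU-DHL-4 and 147 without Namalwa. Correlations of replicate differences between lines were above 0.1 in 10 of 15 pairs (from -0.07 to 0.36), not in all, so the replicate numbers were not taken to pair the samples. With a replicate block on the 12 numbered arrays, the Hodgkin comparison called 2 kinases and 571 genes, and without the block 3 kinases and 691 genes. On the same arrays the calls of lines against others were 97 with the replicate block and 95 without, and the F test called 26 and 25. Why results moved was not tested, and for smaller sets of arrays or lines fewer samples were fitted.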
